A study of Mus musculus with 6 samples.

Results

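MicroRNAs of the miR-193 and miR-365 family were measured by quantitative PCR in subcerebral projection neurons (SCPN) and callosal projection neurons (CPN) of mice at postnatal day 1. SCPN send axons out of the cortex to the brainstem and spinal cord, and CPN, marked as the controls in the labels, connect the hemispheres. Each group had 3 samples of purified cell bodies. The sources used here give neither the strain, nor the way the neurons were labelled and sorted, nor whether each sample had its own animals. The p-values measure only how far these 6 samples scatter, and that scatter may be technical. The members are all assays whose name, without species prefix and part number, is miR-193, miR-193b or miR-365, with or without a strand suffix. This gave 4 of the 584 microRNA assays, in 5 of 734 wells: miR-193b, miR-365 and miR-193 on card A, and miR-193* in 2 wells on card B.

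A microRNA finds messenger RNAs by pairing its seed, bases 2 to 8 from its 5′ end, with sites in them, and so lowers their translation and stability. MiR-193b and miR-365 are processed from one primary transcript, and in cultured mouse cells this cluster is known for promoting brown fat differentiation and for holding back muscle genes. MiR-193, now named miR-193a-3p, is the paralog of miR-193b and comes from another chromosome.

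The sequences below are RefSeq's (GRCm38.p6), matched to the assays by name, and are shown because they say which products the assays can tell apart. Capitals mark the seed.
miR-193b (miR-193b-3p): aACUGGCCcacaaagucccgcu
miR-193 (miR-193a-3p): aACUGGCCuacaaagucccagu
miR-193* (miR-193a-5p): uGGGUCUUugcgggcaagauga
miR-365 (miR-365-3p): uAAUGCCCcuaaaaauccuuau
The mature miR-193b and miR-193 share the seed and 19 of 22 bases, and the 3 differences from miR-193b to miR-193, counted from the 5′ end, are C9U, G20A and C21G. MiR-365 has another seed.

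The genes lie in 2 places of the same layout. Mir193b (chr16:13449523-13449601, plus strand) is 4.24 kb upstream of Mir365-1 (chr16:13453840-13453926, plus strand), with 0 microRNA genes between, and both lie inside the annotated span of the long noncoding RNA genes Gm32817 and Gm53058. Mir193a (chr11:79711969-79712034, plus strand) is 14.4 kb upstream of Mir365-2 (chr11:79726400-79726511, plus strand), and 0 other genes of the table overlap either. Both Mir365 hairpins are printed because they yield the same mature miR-365, marked by the second run of capitals, while the first run is the other strand.
Mir365-1: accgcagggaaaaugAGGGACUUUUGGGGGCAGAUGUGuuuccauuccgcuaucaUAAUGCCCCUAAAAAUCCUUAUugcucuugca
Mir365-2: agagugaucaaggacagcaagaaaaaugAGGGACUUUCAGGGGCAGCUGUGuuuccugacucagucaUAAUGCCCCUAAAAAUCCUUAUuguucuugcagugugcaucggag
The 2 mature copies match at 22 of 22 bases, so the miR-365 assay cannot tell the chromosome 16 copy, next to Mir193b, from the chromosome 11 copy, next to Mir193a. The other strands differ at 3 of 23 bases, and the cards carried 0 assays for them or for miR-193b-5p.

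Each value is a threshold cycle (Ct), the PCR cycle at which the signal of the well passes a fixed threshold. A Ct lower by 1 cycle means about a doubling of template. A Ct of 35 or more was taken as not detected. Samples differed in overall Ct: the mean Ct of the card A assays detected in all 6 samples was 21.8, 27.1 and 27.2 in SCPN replicates 1, 2 and 3, against 22.6, 28.1 and 24.7 in CPN replicates 1, 2 and 3. The members' Ct was therefore set against that mean, with the sign turned, to give a log2 level on which 0 is the mean of the common assays. Of 8 neuron marker names 7 were found, and all 7 were detected in all 6 samples, with miR-9, an abundant microRNA of neural cells, at a level of 8.01 ± 0.68 in SCPN and 8.30 ± 1.08 in CPN (SD, n = 3 each). MiR-124, also on that list, averaged below the mean of the common assays, at -1.25 ± 0.87 in SCPN and -0.88 ± 0.34 in CPN. The neuron markers had no common direction: 4 had a higher and 3 a lower mean in SCPN, and 0 passed the adjusted threshold. MiR-138 was at 7.28 ± 0.13 in SCPN and 6.26 ± 0.20 in CPN (log2 level, SD, n = 3 each, limma adjusted p 0.71). Its groups did not overlap, with SCPN higher, as was so in 27 of 306 tested assays (8.82%). MiR-128 was at 2.25 ± 0.23 in SCPN and 2.81 ± 0.28 in CPN (limma adjusted p 0.81). These 2 were named here after their values were seen.

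MiR-193b was abundant in both neuron classes, with a higher mean level in SCPN that did not pass the test after adjustment, as given below. Its raw Ct was 15.8, 21.7 and 21.7 in SCPN replicates 1, 2 and 3, against 18.6, 24.0 and 21.6 in CPN replicates 1, 2 and 3. The raw Ct values overlapped, and SCPN replicates 2 and 3 also had a later overall Ct than CPN replicate 3. Relative to the common assays, its level was 5.94, 5.46 and 5.58 in SCPN and 4.04, 4.08 and 3.17 in CPN. The groups did not overlap, with 1.37 log2 units between the lowest SCPN and the highest CPN sample. Ranked by Ct among the detected assays of card A, it stood at places 8, 10 and 10 in SCPN (of 229, 191 and 184 detected) and at places 24, 21 and 26 in CPN (of 216, 173 and 221). Such a rank also reflects the efficiency of each assay.

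MiR-365 crossed the threshold later and likewise had a higher mean level in SCPN without passing after adjustment. Its raw Ct was 23.4, 27.9 and 27.7 in SCPN and 25.9, 30.6 and 27.4 in CPN. Its level was -1.63, -0.72 and -0.51 in SCPN, against -3.32, -2.54 and -2.67 in CPN. Here too the groups were separate, and 0.91 log2 units separated the lowest SCPN sample, replicate 1, from the highest CPN sample, replicate 2. Its rank on card A was 108, 90 and 89 in SCPN and 129, 118 and 128 in CPN.

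**Figure D1:**
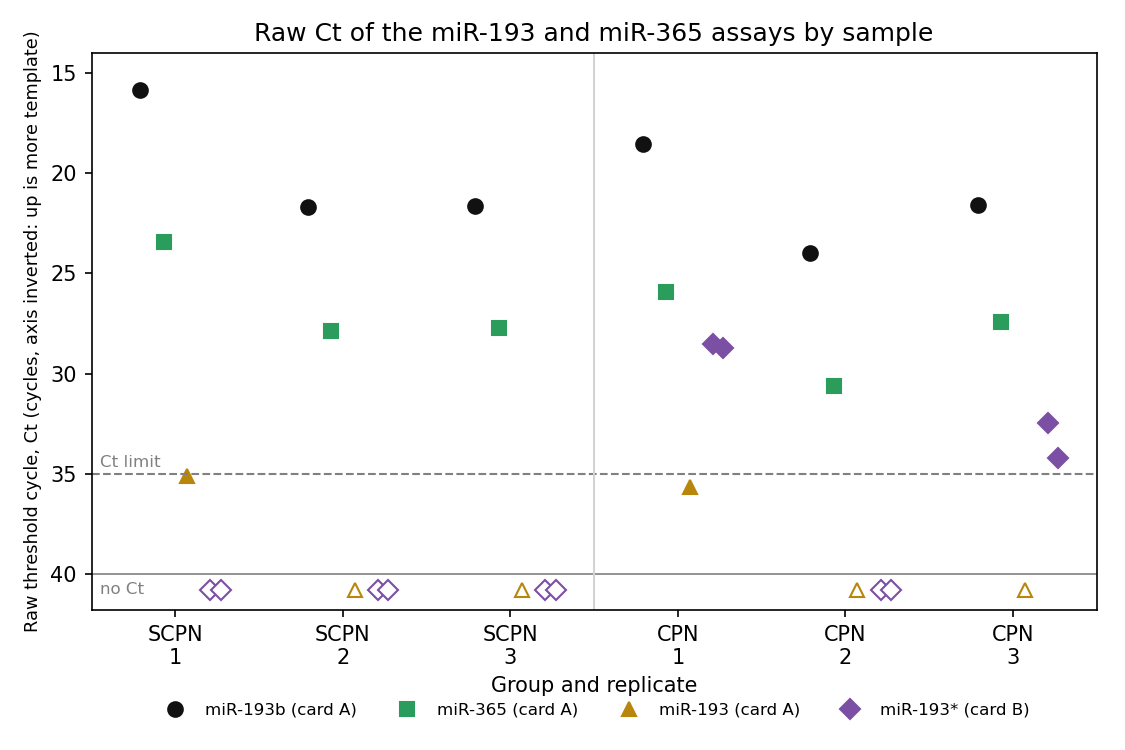
Raw Ct of each well (y axis in cycles, inverted so that up means more template) in the 3 SCPN samples and the 3 CPN samples, with open symbols for wells without a Ct and a dashed line at the limit of 35. MiR-193b and miR-365 were detected in all 6 samples, miR-193 in 0 of them, and miR-193* in CPN replicates 1 and 3.

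The mean differences of the pair, SCPN minus CPN, were almost equal. MiR-193b averaged 5.66 ± 0.25 in SCPN and 3.77 ± 0.51 in CPN (log2 level, SD, n = 3 each). Its difference was 1.89 ± 0.56 on the log2 scale (SE), or 3.72-fold with a 95% interval of 1.49 to 9.26. MiR-365 averaged -0.95 ± 0.60 in SCPN and -2.84 ± 0.42 in CPN, and its difference was 1.89 ± 0.60 on the log2 scale (SE), or 3.71-fold with an interval of 1.41 to 9.72. In the limma fit over 306 tested assays the unadjusted p was 0.011 for miR-193b and 0.014 for miR-365, and the Benjamini-Hochberg adjusted p was 0.40 for each, so neither passed 0.05. Over all tested assays 0 passed the adjusted threshold (0%), and 20 had an unadjusted p under 0.05 with a higher level in SCPN (6.54%). Groups did not overlap, with SCPN higher, in 27 assays (8.82%), and the 2 members tested were among them. Of the 4 members these 2 passed the filter on low values, each with a Ct under 35 in all 6 samples. The study is known to have singled out this cluster from these samples, so its direction is not independent evidence.

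**Figure D2:**
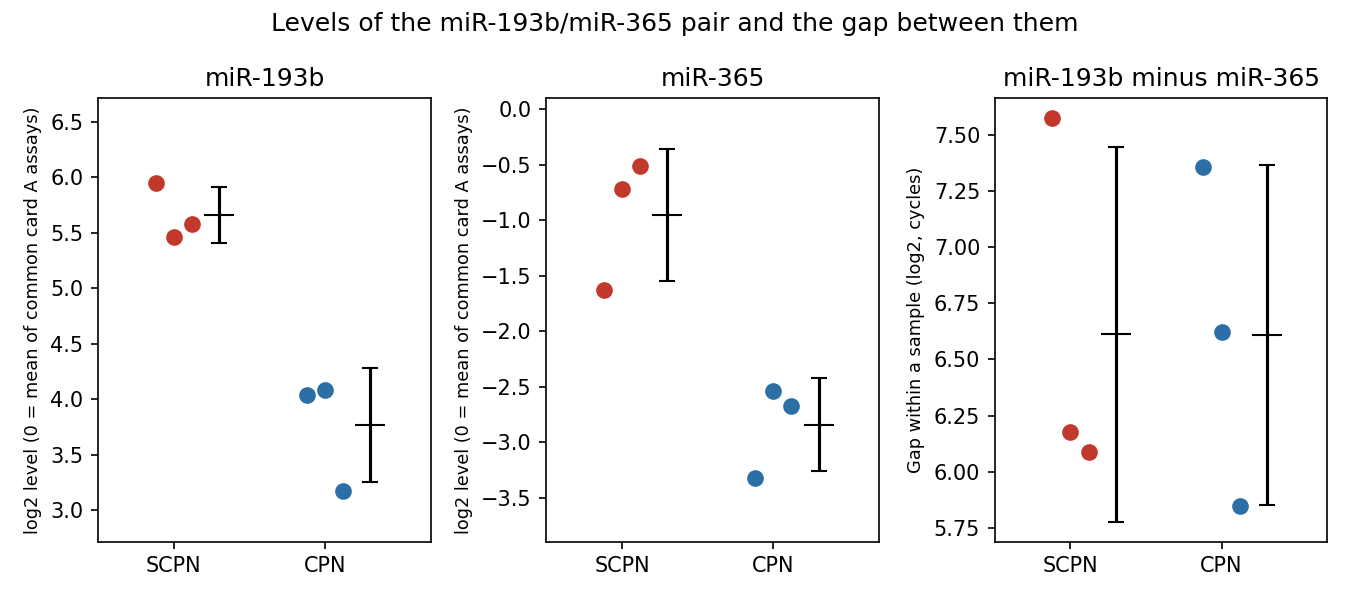
The first 2 panels show the log2 level of miR-193b and of miR-365 in each SCPN sample (red) and CPN sample (blue), and the third the gap between them within a sample in log2 units, with mean ± SD as black bars (n = 3 each). Levels of both did not overlap between groups, while the gaps of SCPN and CPN overlapped.

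Among all tested assays the median difference was -0.079, with an SD over assays of 1.15. MiR-193b and miR-365 stood at places 23 and 24 of 306 by the size of the difference, highest in SCPN first. Of the 22 assays above miR-193b, 17 were microRNAs of the imprinted 12qF1 region, a large maternally expressed cluster on chromosome 12. Outside that region 263 assays were tested. Among them miR-193b and miR-365 stood at places 2 and 4 by smallest limma p, and at places 6 and 7 by the size of the difference. Apart from miR-365, the assays outside 12qF1 that had at least the difference of the pair and a Ct under 35 in all 6 samples were miR-700 (2.26 ± 0.71) and miR-203 (2.67 ± 1.12, log2 difference ± SE), which is known from skin. These 2 were named because they passed the pair's value. Larger differences were also seen in miR-218-2* (3.25), miR-384-3p (3.24) and miR-206 (2.85), which were not detected in all 6 samples.

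**Figure D3:**
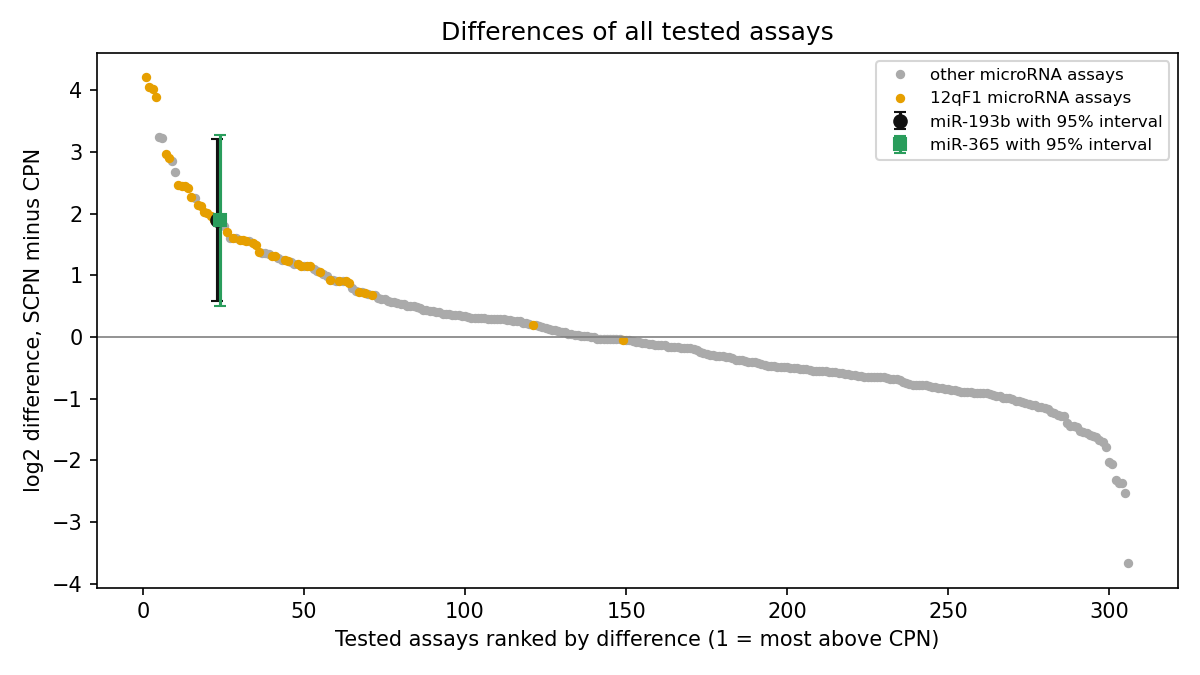
Log2 difference, SCPN minus CPN, of the 306 tested assays in order of rank, with 12qF1 microRNAs in orange and 95% intervals for miR-193b (black) and miR-365 (green). Both members lie at 1.89, at places 23 and 24, among 12qF1 assays.

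The size of the differences depended on what the Ct were set against. In the authors' deposited table the relative quantity, SCPN over CPN, was 8.79 for miR-193b and 8.77 for miR-365, at places 14 and 15 of 280 wells whose median was 1.65. With that scaling, on control RNAs, the median of all tested assays moved up by 0.95 log2 units and miR-193b differed by 3.14 ± 1.12 (SE, limma adjusted p 0.31), at place 19 of 306. Relative to the median of all tested assays miR-193b then lay 2.26 higher and miR-365 2.26 higher, against 1.97 for each with the scale used here. Leaving the 12qF1 assays out of the scale gave 2.24 for both differences, which is 2.04 above the median of all assays for each. With the replicate number as a block, the limma adjusted p was 0.13 for each member, and the count of assays at unadjusted p under 0.05 was 51, against 25 without the block.

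The gap between the 2 assays of the pair is the same under any scaling that subtracts 1 value per sample and card, since both sit on card A. MiR-193b crossed the threshold earlier than miR-365 by 7.57, 6.18 and 6.09 cycles in SCPN replicates 1, 2 and 3, against 7.36, 6.62 and 5.85 cycles in CPN replicates 1, 2 and 3. The widest gap in each group was that of replicate 1, the sample with the earliest overall Ct of its group. The mean gap was 6.61 ± 0.83 in SCPN and 6.61 ± 0.76 in CPN (cycles, SD, n = 3 each), and the groups differed by 0.0032 with a 95% interval of -1.80 to 1.81. An exact two-sided permutation test gave p = 1, where 0.1 is the smallest p that 3 against 3 allows. The interval is wide, so these samples do not tell a difference between the classes in this gap from 0 anywhere within those bounds. With 0.1 as its smallest p, the permutation test could not fall under 0.05 for a difference of any size. The gap is not a ratio of molecules, as assays differ in efficiency.

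MiR-193, the paralog with the same seed, was not detected in either class. Its assay gave a Ct of 35.1 in SCPN replicate 1 and 35.7 in CPN replicate 1, both past the limit, and no Ct in the other 4 samples. It was therefore not tested, and its SCPN to CPN difference is unknown. MiR-193b lay 19.2, 13.3 and 13.3 cycles before the limit in SCPN and 16.4, 11.0 and 13.4 cycles before it in CPN, so that miR-193 came at least that much later. The same bounds for miR-365 were 11.6, 7.14 and 7.26 cycles in SCPN and 9.09, 4.39 and 7.59 in CPN. In the sample with the earliest miR-193b signal, SCPN replicate 1, the wells of these 2 assays, whose targets differ at 3 bases, stood 19.3 cycles apart.

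The other strand of the paralog, miR-193*, gave a Ct in CPN samples alone. Its wells gave Ct of 28.5 and 28.7 in CPN replicate 1 and 32.5 and 34.2 in CPN replicate 3. It gave no Ct in CPN replicate 2 or in the 6 wells of the 3 SCPN samples, among them SCPN replicate 1, which had the earliest overall Ct on card B (23.6, against 24.3 in CPN replicate 1). On the card B scale its level was -4.36 in CPN replicate 1 and -6.88 in CPN replicate 3, while the limit lay at -11.4 in SCPN replicate 1, at -6.93 and -6.59 in SCPN replicates 2 and 3 and at -6.20 in CPN replicate 2. SCPN replicate 1 thus lay below both CPN values, whereas the limits of SCPN replicates 2 and 3 lay near the value of CPN replicate 3. With 2 of 6 samples detected it was under the minimum of 3 for the test. When assays detected in at least 1 sample were admitted (373 assays), miR-193* entered through CPN samples alone. All its SCPN values were then limits, set by the overall Ct of each sample, so no difference is read from that fit. In CPN replicate 1, miR-193* was thus well inside the range of detection while miR-193, from the same hairpin, was not.

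The microRNAs whose levels ran most like the pair over the 6 samples were mostly of the 12qF1 region. By Pearson correlation among 223 other assays detected in all samples, the 5 closest to miR-193b were miR-673-3p (0.97), miR-700 (0.94), miR-666-5p (0.93), miR-380-5p (0.92) and miR-127 (0.92), and all but miR-700 lie in 12qF1. The 5 closest to miR-365 were miR-376a (0.96), miR-485* (0.96), miR-409-3p (0.95), miR-434-5p (0.93) and miR-138 (0.92), of which the first 4 lie in 12qF1. MiR-193b and miR-365 correlated at 0.80 and were each other's match at places 14 and 15. The 6 points fall into 2 groups whose means differ and share the scale of their sample, so these values are a description of the 6 samples and carry no p.

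Other microRNA genes that sit in pairs were set beside the cluster. Under the rule of exactly 1 neighbour within 10 kb and 1 tested leading-strand assay for each gene, 6 other pairs were found, all with both assays on 1 card. Each of their assays matched 1 gene. The cluster does not meet that condition, since the miR-365 assay reads both Mir365 copies. The distance between the differences of neighbours ran from 0.010 in miR-34b-3p and miR-34c (-0.65 and -0.64), a cluster known as a p53 target, to 1.14 in miR-130b and miR-301b (-0.88 and 0.25), with a median of 0.27. For miR-193b and miR-365 it was 0.0032. That value was not stable: with 1 sample left out the signed difference ran from -0.48 (without SCPN replicate 1) to 0.38 (without CPN replicate 1), and quantile normalization gave 0.25, near the median of the other pairs. In 0 of the 6 other pairs did both members differ by more than 1. The SD of the gap within groups was 0.80 for miR-193b and miR-365 and had a median of 1.07 in the other pairs, with 1 pair, miR-30b and miR-30d, below the cluster (0.31). Unlike the cluster, some of the other pairs include values set to the Ct limit. For example, miR-143, paired with miR-145, was detected in only 2 SCPN and 2 CPN samples. Distances and gap SDs of such pairs partly reflect the limit. In the pair with the smallest distance, miR-34c averaged -8.20 in SCPN and -7.57 in CPN. The card A limits lay close to that, at -7.86 and -7.77 in SCPN replicates 2 and 3 and at -6.93 in CPN replicate 2.

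**Figure D4:**
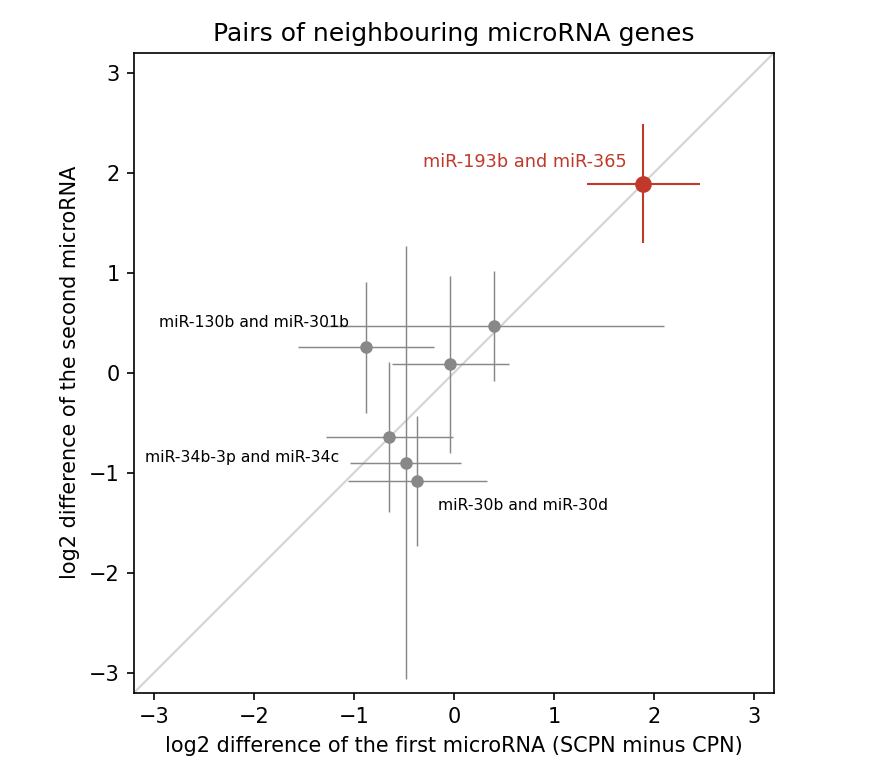
Log2 difference, SCPN minus CPN, of the first (x axis) and second (y axis) microRNA of each pair of neighbouring genes, with SE bars and a line of equal differences. The miR-193b/miR-365 pair (red) lies at 1.89 on both axes, and the 6 other pairs lie between -1.08 and 0.47.

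MicroRNAs with known roles in brown fat or muscle cell differentiation, the setting in which the cluster is best known, gave no common direction. Of 19 names on that list 18 were found, and 14 assays were tested: 5 had a higher and 9 a lower mean in SCPN, beside 45.1% with a higher mean among all tested assays. Their median log2 difference was -0.44 against -0.079 over all tested assays, and 0 passed the adjusted threshold. At an unadjusted p under 0.05, 2 were higher and 1, miR-133a, was lower, where 6.54% of all tested assays were higher and 1.63% lower. MiR-133a, a muscle microRNA that holds back brown fat, stood at -5.70 ± 1.30 in SCPN and -2.03 ± 0.23 in CPN (log2 level, SD, n = 3 each), with an unadjusted p of 0.0015 and a limma adjusted p of 0.24. MiR-206, a microRNA of skeletal muscle, was at -3.78 ± 0.99 in SCPN and -6.63 ± 1.91 in CPN with an adjusted p of 0.50, detected in 3 SCPN and 2 CPN samples. MiR-203 was at 1.74 ± 1.07 in SCPN and -0.93 ± 2.10 in CPN with an adjusted p of 0.58. The summed level of the detected muscle markers was -3.83 to -2.72 in SCPN and -1.98 to -1.84 in CPN, and miR-133b was detected in 0 samples. That sum joins miR-206 on card B with card A assays, although each card has its own scale. It also counts both the mouse and the rat miR-1 assay, so it is only a rough description. Of the 2 muscle markers tested, miR-206 had a higher and miR-133a a lower mean in SCPN. The mouse and rat miR-1 assays, detected too rarely for a test, were each detected in 0 SCPN and 2 CPN samples. MiR-206 was thus the only detected muscle marker that leaned to SCPN. Their part in the values of miR-193b and miR-365 was not tested.

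Markers of the remaining cell types were low, or their summed levels overlapped between the groups. Vascular markers summed to 2.23 to 4.53 in SCPN and 1.69 to 2.47 in CPN, and microglia and blood markers to 0.75 to 2.80 in SCPN and 1.39 to 2.00 in CPN (log2 level, ranges over 3 samples). The astrocyte and radial glia list, whose members are not specific, summed to 2.13 to 3.86 in SCPN and 2.12 to 3.81 in CPN. The vascular markers were not low. Of 4 tested, 3 had a higher and 1 a lower mean in SCPN, beside 45.1% higher among all tested assays. Of these 4, 0 passed the adjusted threshold, and their part in the pair's values was not tested. Of the 2 oligodendrocyte microRNAs, miR-219 was detected in 1 SCPN and 0 CPN samples and miR-338-3p in 2 and 2. The log2 difference of miR-338-3p was -0.55 (limma adjusted p 0.91). Of the 2 erythroid microRNAs found, miR-451 was detected in 1 SCPN and 0 CPN samples and miR-486 in 0 and 0. In bulk samples of this kind, more cells of one type and more microRNA per cell cannot be told apart.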

How the data were processed

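The authors deposited raw Ct values per well from TaqMan Low Density Array rodent microRNA cards, per the series' design text, with normalised Ct values and a ratio per assay, the relative quantity. By comparison of the deposited sheets, the ratio is 2 raised to the drop in mean normalised Ct in SCPN relative to CPN. The setting of thresholds and any prior amplification of cDNA are not given in the sources used. Duplicate wells were averaged, leaving out wells without a Ct, and means of 35 or more, or no Ct, were set to 35. The mean Ct of the assays under 35 in all 6 samples (224) was subtracted per sample and card. Assays under 35 in at least 3 samples (306) were fitted with limma (version 3.58.1, R version 4.3.3). Tests were two-sided and adjusted by Benjamini-Hochberg. No read depth exists, and precision rests on 3 samples per group and the Ct limit. The fit was tested on simulated data.

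Gaps between members were to be compared by exact permutation tests. For the gaps with miR-193 only bounds exist, so 1 gap was tested. Same-numbered samples deviated together from their group means (correlations over assays 0.70, 0.33 and 0.28, each over 0.1). The labels give only the number, so this pairing was inferred from the data and used in the replicate block alone. The main fit and the gap test were unpaired. Samples with different numbers correlated as much in places, SCPN replicate 3 with CPN replicate 2 at 0.41 and SCPN replicate 2 with CPN replicate 3 at 0.26, so replicates 2 and 3 are not set apart by number. Neighbouring genes, hosts and names came from RefSeq tables of GRCm38.p6, where 499 of 584 assays matched 1 gene, 49 several and 36 none. The deposited files name no genome build. The members and lists were chosen with earlier results of these data known. The text names all members, list members with an unadjusted p under 0.05, the 5 most alike assays per member, and the neighbour pairs at the ends of the range. Some other assays are named for their level, gap or detection. Alternatives covered the Ct limit, wells, scaling, filter, moderation, weights, the replicate block and each left-out sample. 0 columns of other samples were present.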

Additional observations from a re-analysis of the deposited data

How the results depend on the processing

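The differences of miR-193b and miR-365 kept their direction under all 19 alternatives tried for them, and in none did either pass the adjusted threshold. The range was 1.60 to 3.22 for miR-193b and 1.65 to 3.21 for miR-365, and the limma adjusted p ran from 0.11 to 0.96 for both. The upper ends came from scaling on controls without U6, which moved the median of all tested assays up by 1.14. Leaving out 1 sample gave 1.60 to 2.03 for miR-193b and 1.65 to 2.23 for miR-365, and leaving out SCPN replicate 2 or 3 gave miR-365 an unadjusted p of 0.051 or 0.069. The count of assays past the adjusted threshold was 1 with sample weights and 0 under every other alternative. The share of assays at unadjusted p under 0.05 that were higher in SCPN changed with the scaling: 30 of 30 with the deposited scaling, 37 of 37 on controls without U6 and 29 of 32 without the 12qF1 assays, against 20 of 25 on the scale used, and it was 12 of 14 without SCPN replicate 3. With the replicate block (paired) the differences stayed at 1.89 and the adjusted p at 0.13, and it changed no call. The gap between miR-193b and miR-365 differed between groups by -0.48 to 0.38 when 1 sample was left out, turning negative without CPN replicate 3 or SCPN replicate 1, and by 0.25 with quantile normalization. Without the Ct limit miR-193 had a Ct in 2 samples, too few for a test, with gaps to miR-193b of 19.3 in SCPN replicate 1 and 17.1 in CPN replicate 1 and gaps to miR-365 of 11.7 in SCPN replicate 1 and 9.77 in CPN replicate 1. No other alternative gave it a value. The Ct limit bounds what can be said of miR-193 and miR-193*.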
